A study of Mus musculus with 12 samples.

Results

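The genes for 10 dual specificity phosphatases (Dusp) were described in C2C12 cells, a mouse myoblast line that grows in serum-rich medium (GM) and fuses into myotubes when serum is withdrawn. They are the muscle-type and general atypical genes Dusp13, Dusp27 and Dusp3, and the MAP kinase phosphatase genes Dusp4, Dusp5, Dusp6, Dusp9, Dusp8, Dusp10 and Dusp16. The genes were chosen by name, as a list drawn up with results of these data known, and each has a row in at least 1 of 3 deposited tables of RNA-seq comparisons. The tables together hold 10289 genes, among them 18 Dusp genes, so 8 Dusp genes with a row are not in the list. The first table compares GFP-overexpressing cells after 4 days in differentiation medium (D4) with the same line in GM. The other tables compare METTL3- and METTL14-overexpressing cells with GFP-overexpressing cells, all in GM. Each of these 4 groups has 2 libraries. For METTL14 the titles give day 0 and the time point field gives day 4, and the titles were used. All lines, controls included, carry a lentiviral vector and were selected with puromycin; the mouse cDNAs were placed behind a CMV promoter, and whether a line is a clone or a mixed population was not given in the sources used here.

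The usable value in each table is the mean normalized count, an average over libraries that the authors made after scaling each library for depth. It carries no error, and the level in a single group, library or time point was not analysed here. A row says that the gene passed the authors' limit on the false discovery rate for that comparison, and by itself gives no direction or size. The columns with the direction and size of each change hold the authors' own comparison and were not used, so no gene is called higher or lower below. For 1746 genes with a row in more than 1 table the mean was the same in each (largest relative difference 4.77e-10), so it refers to a common set of libraries. It therefore mixes myoblasts with myotubes, and a high mean can come from a single group.

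Dual specificity phosphatases remove phosphate from tyrosine and from serine or threonine, with a cysteine that attacks the phosphate. MAP kinase phosphatases are the members that bind MAP kinases and switch them off by acting on both phosphorylated residues of the activation loop. The ERK, JNK and p38 kinases they control carry growth factor and stress signals, and in myoblasts ERK signaling is known to favour proliferation while p38 favours differentiation. Atypical members are mostly smaller, lack the MAP kinase binding domain and often act on other substrates.

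The coding sequence of the active site is shown because its cysteine is the residue that makes these proteins phosphatases. It was found as a histidine, a cysteine, any 5 residues and an arginine in the translation of the GENCODE transcripts (GRCm38), and is given 5′ to 3′ on the coding strand with the cysteine codon in capitals.
Dusp13, chr14:21733814-21733837, minus strand: cacTGCgctatgggggtgagtcgc
Dusp13, second site, chr14:21746480-21746503, minus strand: cacTGCgtggtgggtgtgagccga
Dusp3, chr11:101974902-101974925, minus strand: catTGCcgcgagggctacagccgc
Dusp4, chr8:34818433-34818456, plus strand: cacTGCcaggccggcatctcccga
Dusp5, chr19:53540951-53540974, plus strand: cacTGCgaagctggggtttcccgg
Dusp6, chr10:99266027-99266050, plus strand: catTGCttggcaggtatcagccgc
Dusp9, chrX:73642119-73642142, plus strand: cacTGTctggcaggggtcagccgc
Dusp8, chr7:142083333-142083356, minus strand: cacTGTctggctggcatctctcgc
Dusp10, chr1:184074293-184074316, plus strand: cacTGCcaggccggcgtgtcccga
Dusp16, chr6:134720559-134720582, minus strand: cacTGCttagctgggatctctcgc

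Of the 10 genes, 9 encode this signature, and all of the sites lie within single coding exons. Neither of the 2 protein-coding transcripts of Dusp27 holds it. Dusp27 is known from textbook accounts as a muscle-enriched member without catalytic activity. Dusp13 is the only gene of the 10 with 2 different sites. The first was found in 6 of its 8 protein-coding transcripts and the second in 1, and they lie in separate exons of a locus known to encode a muscle and a testis enzyme. The cysteine codon is TGT in Dusp8 and Dusp9 and TGC in the other 7 genes. Over the 24 bases, pairs of MAP kinase phosphatases shared between 13 and 22 bases (median 17, 21 pairs), with Dusp4 and Dusp10 the closest pair at 22 and Dusp8 and Dusp16 next at 20. Pairs of an atypical gene (Dusp13 by its first site, or Dusp3) and a MAP kinase phosphatase shared between 11 and 16 bases (median 13, 14 pairs). Dusp3 and Dusp13 shared 13 with each other. The search fixed the histidine, cysteine and arginine, so part of each count of shared bases was set in advance.

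Of the 3 atypical genes among the 10, Dusp3 had the highest mean normalized count. Dusp3 (ENSMUSG00000003518, chromosome 11, 101971143 to 101987013) encodes VHR, a small phosphatase of ERK and JNK, and had a mean normalized count of 1336, the highest of the 10 genes. Dusp27 (ENSMUSG00000026564, chromosome 1, 166098148 to 166127922) followed with a mean normalized count of 1153. Counts grow with transcript length, so levels of different genes were compared per kb of annotated exon. On that scale Dusp3 and Dusp27 were at 285.3 and 284.8 mean normalized counts per kb, a ratio of 1.00. Dusp13 (ENSMUSG00000021768, chromosome 14, 21733394 to 21751181) had a mean normalized count of 432 and 157 per kb of exon. Its level depends on the length used, because its 14 transcripts together cover 2.744 kb and the longest covers 1.745 kb. Per kb of the longest transcript Dusp13 was at 247, above Dusp6, Dusp10 and Dusp5, all of which it was below per kb of exon.

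The nuclear, growth factor-inducible MAP kinase phosphatases were Dusp4 and Dusp5. Dusp4 (ENSMUSG00000031530, chromosome 8, 34807297 to 34819894), which encodes MKP-2, had a mean normalized count of 879. Per kb of exon it was at 321, the highest of the 10 genes and 1.12 times the value of Dusp3. Dusp5 (ENSMUSG00000034765, chromosome 19, 53529109 to 53542431) encodes a nuclear phosphatase selective for ERK and had a mean normalized count of 431, or 174 per kb. Dusp4 was thus 1.84 times as high as Dusp5 per kb of exon.

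Of the cytoplasmic ERK phosphatases, Dusp6 was well above Dusp9. Dusp6 (ENSMUSG00000019960, chromosome 10, 99263231 to 99267489) encodes MKP-3, a feedback inhibitor of ERK signaling, and had a mean normalized count of 662, or 211 per kb. Dusp9 (ENSMUSG00000031383, chromosome X, 73639419 to 73643514) encodes MKP-4 and had the lowest mean normalized count of the 10 genes, 209. Per kb of exon it was at 76.8, and Dusp6 was 2.75 times as high.

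The phosphatases that prefer JNK and p38 differed 4.26-fold per kb of exon between the highest and the lowest of the 3. Dusp10 (ENSMUSG00000039384, chromosome 1, 184013302 to 184075636) encodes MKP-5 and had a mean normalized count of 615, or 202 per kb. Dusp16 (ENSMUSG00000030203, chromosome 6, 134715468 to 134792625) encodes MKP-7 and had a mean normalized count of 388. With the longest exon sequence of the 10 genes (7.798 kb), it was at 49.7 per kb. Dusp8 (ENSMUSG00000037887, chromosome 7, 142079490 to 142095843) had a mean normalized count of 231 and 47.5 per kb, the lowest of the 10 on that scale. Dusp10 was 4.07 times as high as Dusp16 per kb of exon, and 4.26 times as high as Dusp8. Without division by length these ratios were 1.59 and 2.66. Per kb of the longest transcript Dusp10 was at 220 and Dusp16 at 76.0, close to Dusp9.

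**Figure D1:**
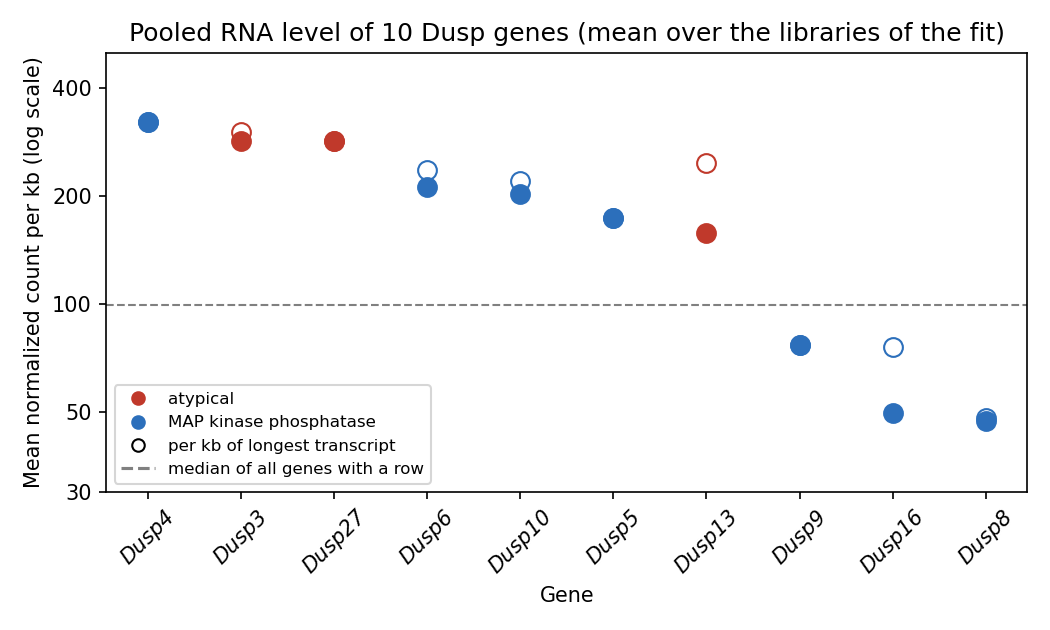
Mean normalized count per kb (vertical axis, log scale) of each of the 10 genes (horizontal axis), per kb of all annotated exons (filled circles) or of the longest transcript (open circles), with atypical genes in red and MAP kinase phosphatases in blue; each point is a mean over libraries and has no error bar. A group of 7 genes from Dusp4 to Dusp13 lies above the median of all genes with a row (99.5 per kb of exon, dashed line), and Dusp9, Dusp16 and Dusp8 lie below it.

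Over the 10 genes the mean normalized count ran from 209 to 1336, 6.39-fold, and the level per kb of exon from 47.5 to 321, 6.76-fold. Ordered per kb, the genes were Dusp4, Dusp3, Dusp27, Dusp6, Dusp10, Dusp5, Dusp13, Dusp9, Dusp16 and Dusp8. The widest step between neighbours per kb of exon was from Dusp13 to Dusp9, 2.05-fold. Which step was widest depended on the length used. Per kb of the longest transcript it lay between Dusp5 (174) and Dusp9 (76.8). Without division by length it was from Dusp16 to Dusp8, 1.68-fold. Without values per library it cannot be said which neighbours differ beyond their spread. By mean normalized count, Dusp3 was above 78.6% of the 10289 genes and Dusp9 above 34.1%. On that scale 5 of the 10 genes were above the median of all genes with a row (458), against 7 per kb of exon. Per kb of exon, Dusp4, the highest of the 10, was above 80.2% of the 10282 of these genes that had a gene model. Dusp8, the lowest, was above 33.5%. The base of these percentages is the genes with a row for at least 1 comparison and not all genes measured. The 3 atypical genes had a median of 285 per kb and the 7 MAP kinase phosphatases a median of 174, a ratio of 1.64. The groups overlapped, since Dusp4 was above every atypical gene and Dusp5, Dusp6 and Dusp10 were above Dusp13. The ratio is a description of a mean over unlike groups, and it fell to 1.27 when Dusp3, the one atypical gene of the 10 that is not a muscle-type gene, was left out.

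The rows differed between the tables. Dusp13 and Dusp3 had a row in each of the 3 tables. Dusp27 and Dusp5 had rows for D4 against GM and for METTL3, and Dusp8 for D4 against GM and for METTL14. Dusp4, Dusp6 and Dusp9 had a row only for D4 against GM. Dusp10 and Dusp16 had rows for both METTL3 and METTL14 and none for D4 against GM. In all, 8 of the 10 genes had a row for D4 against GM, where 95.5% of all genes with a row in any table did. For METTL3 it was 6 of the 10 genes, against 17.0% of all such genes, and for METTL14 5 of the 10, against 10.7%. The genes were chosen with these rows known, so nothing is read from the difference. The base of these percentages is the 10289 genes with a row and not the number of genes tested. The METTL3 and METTL14 tables share the GFP libraries in GM, which are also the GM side of the D4 table.

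**Figure D2:**
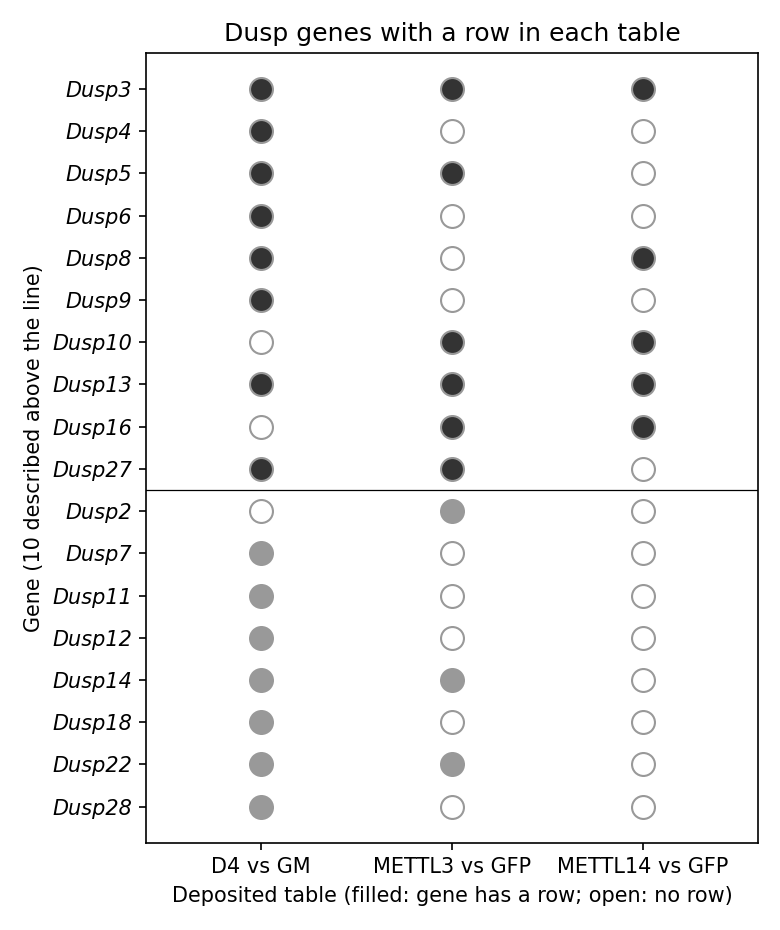
Dusp genes (vertical axis) with a row in each of the 3 deposited tables (horizontal axis); a filled circle marks a row and an open circle none, dark for the 10 genes described and grey for the other 8. Dusp13 and Dusp3 are filled in every column, and Dusp10 and Dusp16 are filled for METTL3 and METTL14 and open for D4.

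By role, all 3 atypical genes had a row for D4 against GM and for METTL3, and 2 of them for METTL14. Of the 7 MAP kinase phosphatases, 5 had a row for D4 against GM, 3 for METTL3 and 3 for METTL14. Every METTL14 row of a MAP kinase phosphatase belonged to the JNK and p38 group, Dusp8, Dusp10 and Dusp16, and no gene of the cytoplasmic ERK group had a row in either overexpression table. Of all genes with a row for any comparison, 95.5% had one for D4 against GM, 17.0% for METTL3 and 10.7% for METTL14. The groups are small and their genes were listed with these rows known, so nothing is read from the split by role. The absence of a row gives neither a size nor a direction and does not show that a gene did not change.

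Another 8 Dusp genes had a row in at least 1 table, 7 of them for D4 against GM, 3 for METTL3 and 0 for METTL14. Among all 10289 genes with a row, the shares were 95.5%, 17.0% and 10.7%. These 8 genes are few and are defined by having a row, so nothing is read from their counts. Dusp11, which acts on RNA 5′ ends, had the highest mean normalized count of these (2449, or 279.8 per kb of exon), and Dusp14 was at 550 (283 per kb). Dusp2 and Dusp7, the remaining MAP kinase phosphatases with a row, were at 41.1 and 59.9 per kb, below Dusp9, and Dusp2 was also below Dusp8. Dusp1, the best known immediate early member, had no row in any of the 3 tables.

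A list of 13 MAP kinase genes was also looked at, and whether each is a target of the 10 phosphatases was not tested. Of the 13 genes, 8 had a row for D4 against GM, 1 for METTL3 and 1 for METTL14. This list includes genes without a row, and on that base 40.1% of all 21951 annotated protein-coding genes had a row for D4 against GM, 7.80% for METTL3 and 4.91% for METTL14. Mapk3, which encodes ERK1, was at 709 mean normalized counts per kb of exon, above each of the 10 phosphatase genes. The p38 genes Mapk14, Mapk12 and Mapk11 were at 261, 133 and 118 per kb. The JNK genes Mapk8, Mapk9 and Mapk10 had no row, nor did Mapk13. Of 7 MAP kinase kinase genes, 3 had a row for D4 against GM and 0 for METTL3 or METTL14.

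METTL3 and METTL14 form the enzyme that writes m6A, a methyl mark on adenosine in RNA, mostly within a short consensus of which GGACT is a frequent form. Matches to these 5 letters were counted on the sense strand in the transcript with the longest coding part of each gene. The 10 transcripts held 36 matches, 22 in coding sequence, 10 in the 3′ UTR and 4 in the 5′ UTR. Dusp13, with 4 matches in 1342 bases, had 2.98 matches per kb, and Dusp6, with 8 matches in 2796 bases, had 2.86. Dusp4 followed with 2.19 matches per kb. These 3 were above 97.7%, 97.3% and 91.0% of the 9253 protein-coding genes with a row in which the motif was counted. At the other end, Dusp3 held 1 match in 4311 bases (0.23 per kb) although its 3′ UTR of 3591 bases was longer than in 91.6% of these genes.

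Between them lay Dusp10 at 1.07, Dusp16 at 0.98, Dusp8 at 0.83, Dusp5 at 0.81, Dusp27 at 0.49 and Dusp9 at 0.37 matches per kb. The median of the 10 was 0.91 matches per kb, against 1.05 (interquartile range 0.65 to 1.53) for the 9253 genes, and 4 of the 10 were above that median. Dusp5 and Dusp3 had all of their matches in the 3′ UTR, and Dusp27 and Dusp9 all of theirs in coding sequence. The share in coding sequence was 61.1% for the 10 genes and 57.2% for all genes, where coding sequence made up 46.1% and 53.0% of the bases. The share for the 10 genes leans on few of them, since Dusp6 held 6 and Dusp4 held 4 of the 22 coding matches. A match is a description of the sequence and not a methylated site, and the MeRIP-seq libraries of the series were not analysed here.

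**Figure D3:**
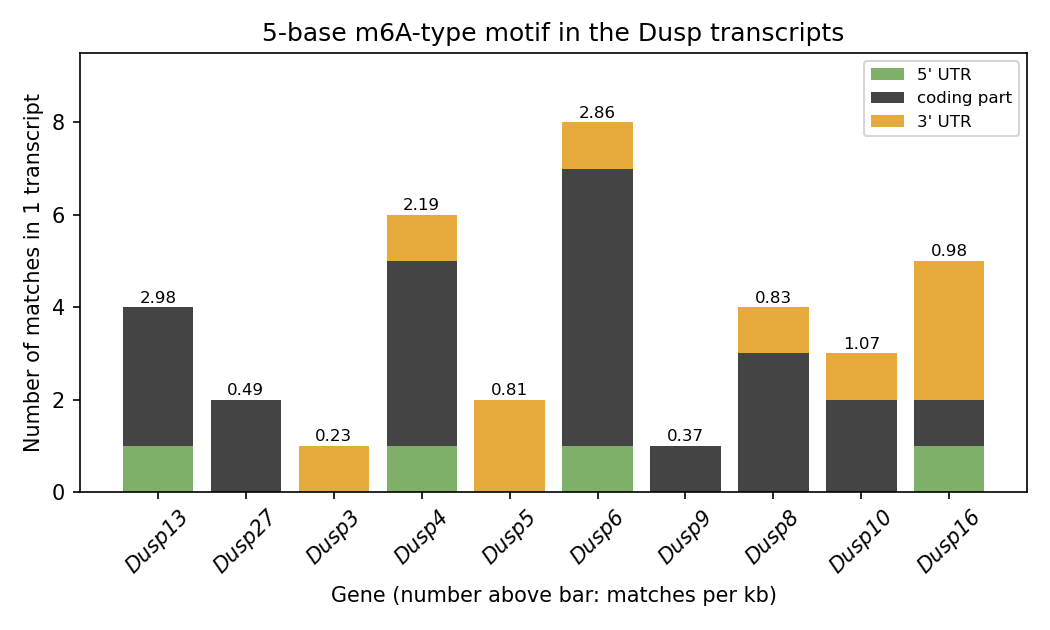
Number of matches to the m6A-type motif (vertical axis) in the transcript with the longest coding part of each gene (horizontal axis), split into 5′ UTR (green), coding part (dark) and 3′ UTR (yellow); the number above each bar is the matches per kb. Dusp6 holds the most matches (8) and Dusp13 the most per kb (2.98), and Dusp3 and Dusp9 hold 1 each.

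Of the 10 genes, 4 share exon bases with a gene on the opposite strand, and whether reads were counted by strand is not given in the sources used here. An antisense gene covers 22.1% of the exon bases of Dusp5, 12.9% of those of Dusp3 and 10.2% of those of Dusp13, and a noncoding gene covers 1.36% of those of Dusp8. If strand was not used, reads of these partners cannot be told apart from those of the phosphatase genes there.

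Of the series as a whole, Mettl3 had a row for METTL3-overexpressing cells and none for METTL14 or for D4 against GM. Mettl14 had rows for METTL14 and for D4 against GM and none for METTL3. The mean normalized counts of Mettl3 and Mettl14 were 5827 and 6250. Reads of the introduced mouse cDNAs cannot be told apart from those of the cells' own genes in these means. All 8 skeletal muscle marker genes looked for had a row for at least 1 comparison, 7 of them for D4 against GM. Among all annotated protein-coding genes, 40.1% had a row for D4 against GM. The mean normalized counts of the muscle markers ran from 21.7 for Pax7 to 53546 for Acta1. The 3 proliferation markers Mki67, Top2a and Cdk1 had a row for D4 against GM. Of 3 markers of fibroblasts and adipocytes, Pdgfra and Cd34 had a row, with mean normalized counts of 525 and 1418. The 2 endothelial markers and the blood marker Ptprc had none. A row marks a gene that passed the authors' limit for a change, so neither its presence nor its absence gives a cell type.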

How the data were processed

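Alignment of the RNA-seq reads (hisat2, GRCm38), gene counting (featureCounts, Ensembl annotation) and group comparison (DESeq2) were done by the authors, who kept in each of 3 tables the genes that passed their limit on the false discovery rate. Program versions and the strand setting of the counting are not given in the sources used here. The value used from these tables is a signal made by the authors, namely read counts divided by size factors and averaged over libraries (mean normalized count). Another 5 columns of each table hold the log2 fold change of the authors' own comparison, its standard error, statistic and p-values before and after adjustment. They were not used, and no test was made, because no value per library was at hand. The depth per library was not analysed here, so no counting interval is given. The 4 MeRIP-seq libraries were not analysed here.

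Groups were taken from the sample titles. Mean normalized counts were divided by the summed length of all annotated exons in GENCODE M21 (GRCm38), another annotation than that of the authors. Of 10289 identifiers, 10282 were found in it. Transcripts were translated to find the active site, and motif matches were counted. The length, motif and percentile steps were tested on simulated gene models. Python 3.11.15, NumPy 2.4.6, SciPy 1.17.1 and matplotlib 3.10.9 were used. The 10 genes, their classes and the gene lists were chosen with earlier results of these data known. Named were the 10 genes, any other Dusp gene with a row, and MAP kinase genes of a set list, of which 1 is not reported here. Alternatives were other lengths, other background genes, a minimum mean normalized count of 10, and other members of each class. The active-site, motif and exon overlap descriptions were chosen after seeing the data. The background of all annotated protein-coding genes and the longest protein-coding transcript for the motif were added then too.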

Additional observations from a re-analysis of the deposited data

How the results depend on the processing

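Of the 45 pairs of the 10 genes, 42 kept their order when the mean normalized count was divided by the longest transcript and 40 when it was not divided by length. The ratio of the atypical to the MAP kinase phosphatase median was 1.27 without Dusp3, 2.05 with all Dusp genes that had a row, 1.637 per kb of the longest transcript and 2.68 without division by length. It stayed above 1 in each of these and has no error. A member's percentile by mean normalized count moved by at most 6.34 points over 30 alternatives of the background, which were not run for the percentile per kb of exon. Among all 21951 protein-coding genes of the annotation, 40.1% had a row for D4 against GM, 7.80% for METTL3 and 4.91% for METTL14. The median motif density was 0.91 per kb with either choice of transcript. The densities of single genes, such as Dusp13, are not given for the other choice. No paired analysis was possible because no value per library was used, and for the same reason leaving out a replicate was not run.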
